A study of Homo sapiens with 4 samples.

Results

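The MCM helicase family comprises 10 genes here, MCM2 to MCM10 and MCMBP, which were chosen by gene symbol. All 10 had a row among the 12912 genes of the count table, each symbol once, and all 10 passed the filter on low counts. 786-O is a human clear cell renal carcinoma line without functional VHL, the substrate-binding subunit of a ubiquitin ligase that marks HIFα for degradation. 786-O-Ctrl (Ctrl cells), labelled wild type and VHL-null, was compared with 786-O-VHL (VHL-restored cells), in which VHL was restored with a retroviral vector for HA-tagged VHL. Both sublines carry a retroviral vector with the triple reporter (GFP, luciferase and thymidine kinase), and both were grown in RPMI1640 with fetal bovine serum and antibiotics. RNA was sequenced from 2 samples of each subline. Each group is 1 subline, and whether the duplicates came from separate cultures is not stated, so the tests measure only the spread between these libraries. What vector, if any, 786-O-Ctrl carries in place of VHL, and whether either subline is a single clone, is not given in the sources used here.

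MCM2, MCM3, MCM4, MCM5, MCM6 and MCM7 are the subunits of the ring that unwinds DNA at replication forks. In the G1 phase, the origin recognition complex, CDC6 and CDT1 load pairs of these rings onto DNA, a step called licensing, and the kinases CDC7 and CDK then turn them into active helicases together with CDC45 and the GINS complex. MCM10 takes part in that activation, MCM8 and MCM9 form a related helicase that acts in homologous recombination, and MCMBP binds the MCM proteins outside chromatin. Genes of the ring are classic targets of E2F transcription factors and are used as markers of cells that can divide.

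The counts summed to between 2807779 and 22141263 per library. VHL-restored replicate 1 was the shallowest, and a count of 0, which allows up to 3 counts, corresponded there to 1.02 CPM (counts scaled to a common library size with edgeR's TMM factors). This limit covers counting error only. The Ctrl columns share a replicate number, so these libraries are called the deeper and the shallower one. VHL was at 42.9 and 43.9 CPM in the deeper and the shallower Ctrl library and at 178 and 163 CPM in VHL-restored replicates 1 and 2. All 7 renal and epithelial markers looked for, such as PAX8, were detected in every library. Among 6 markers of leukocytes, endothelium and fibroblasts, only PECAM1 and COL1A1 had a row, with mean levels of at most 0.348 and 6.83 CPM.

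In VHL-restored cells, 9 of the 10 MCM genes were lower and 0 were higher at an FDR under 0.05 (edgeR quasi-likelihood test with Benjamini-Hochberg adjustment over 12335 genes). MCM9 was the exception. Among all genes tested, 31.9% were lower and 32.6% were higher. With scaling by library totals alone, 3097 genes were lower and 5077 higher, against 3939 and 4017 with TMM, and the MCM counts stayed at 9 and 0. MCM2, MCM3, MCM4, MCM5 and MCM10 fell by more than 4-fold with an FDR under 0.01, a threshold that 1.54% of all genes passed in this direction. Both VHL-restored libraries lay below both Ctrl libraries for the same 9 genes that were lower, as they did for 39.2% of all genes. The median log2 fold change (VHL-restored over Ctrl, called the log2 change from here on) was -1.94 over the 10 genes and 0.02 over all genes. With 2 libraries against 2, a two-sided exact permutation test cannot go below p = 0.333, so the FDR values rest on the spread that edgeR shares between genes. In bulk RNA a smaller share of cells in the cycle and less MCM mRNA per cell cannot be told apart.

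**Figure D1:**
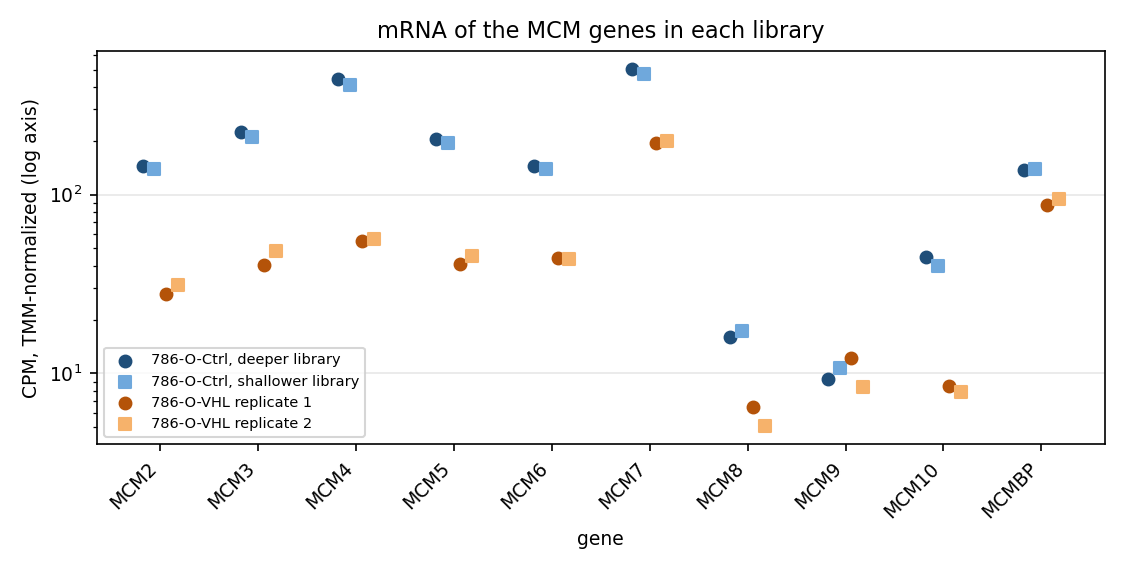
TMM-normalized CPM of each MCM gene on a log axis, with 1 point per library (blue, 786-O-Ctrl or Ctrl; orange, 786-O-VHL or VHL-restored). The blue and orange points are apart for every gene but MCM9, with the widest gap for MCM4, at 412 and 444 CPM in Ctrl cells and 55.3 and 56.3 CPM in VHL-restored cells.

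MCM4 (ENSG00000104738.18, chromosome 8 of GRCh37, 48872745 to 48890720) fell the most. Its mRNA was at 444 and 412 CPM in the deeper and the shallower Ctrl library and at 55.3 and 56.3 CPM in VHL-restored replicates 1 and 2. The log2 change was -2.93 (SE 0.0752, 95% interval -3.09 to -2.78, edgeR FDR = 3.16e-22), which leaves 13.1% of the level in Ctrl cells. Only 73 of the 12335 genes, or 0.592%, had a lower log2 change. The interval of MCM4 did not meet that of any other MCM gene.

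MCM2, MCM3 and MCM5 fell by nearly the same factor. MCM2 (ENSG00000073111.14, chromosome 3, 127317253 to 127341279) was at 144.7 and 139.3 CPM in Ctrl cells and at 27.8 and 31.3 CPM in VHL-restored cells, a log2 change of -2.22 (SE 0.0803, edgeR FDR = 3.05e-19). MCM3 (ENSG00000112118.19, chromosome 6, 52128812 to 52149679) was at 223.6 and 210.5 CPM and then at 40.4 and 48.5 CPM, a log2 change of -2.22 (SE 0.0783, edgeR FDR = 1.81e-19). MCM5 (ENSG00000100297.16, chromosome 22, 35796127 to 35821424) went from 205.2 and 193.2 CPM to 41.0 and 45.3 CPM, a log2 change of -2.17 (SE 0.076, edgeR FDR = 1.67e-19). The 95% intervals of these 3 genes overlap, from -2.38 at the lowest to -2.01 at the highest.

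MCM6 and MCM7 fell less than the other ring subunits. MCM6 (ENSG00000076003.5, chromosome 2, 136597196 to 136634013) was at 145.2 and 139.9 CPM in Ctrl cells, close to MCM2, and at 44.4 and 43.7 CPM in VHL-restored cells. Its log2 change was -1.70 (SE 0.0746, 95% interval -1.85 to -1.55, edgeR FDR = 2.07e-17). MCM7 (ENSG00000166508.17, chromosome 7, 99689856 to 99699563) was at 506 and 473 CPM in Ctrl cells and still at 195.4 and 200.7 CPM in VHL-restored cells. The log2 change of MCM7 was -1.30 (SE 0.0651, 95% interval -1.44 to -1.17, edgeR FDR = 3.68e-16). The interval of MCM6 lay apart from those of MCM2, MCM3, MCM4, MCM5 and MCM7, and that of MCM7 lay above those of all 5 other ring subunits. MCM7 holds MIR106B, MIR93 and MIR25 on its own strand and its start overlaps that of AP4M1 on the other strand, and how such reads were assigned is not given in the sources used here.

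Ring mRNAs did not fall in proportion. The ratio of MCM7 to MCM4 counts, which needs no scaling between libraries, was 1.14 and 1.15 in the deeper and the shallower Ctrl library (exact 95% counting intervals 1.11 to 1.17 and 1.11 to 1.19). In VHL-restored replicates 1 and 2 it was 3.53 (2.96 to 4.23) and 3.57 (3.32 to 3.84). Replicates agreed within their counting intervals, and the groups did not overlap.

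Divided by annotated exon length, the summed level of the 6 subunits was 302.6 and 284.9 CPM per kb in Ctrl cells and 78.4 and 82.9 CPM per kb in VHL-restored cells. Of this sum MCM7 made up 33.6% ± 0.188 (SD, n = 2) in Ctrl cells and 49.5% ± 1.03 (SD, n = 2) in VHL-restored cells. MCM4 made up 14.8% ± 0.158 and 7.03% ± 0.191 (SD, n = 2 each), and MCM3 20.3% ± 0.00415 and 15.1% ± 1.34 (SD, n = 2 each). MCM6 went the other way, with 11.7% ± 0.189 and 13.2% ± 0.683 (SD, n = 2 each). In Ctrl cells the levels per length ran from MCM7 through MCM3, MCM4, MCM6 and MCM2 down to MCM5, and the most abundant subunit was 3.62 and 3.59 times the least abundant. In VHL-restored cells that ratio was 7.02 and 7.08, and MCM2, MCM4 and MCM5, at 6.27 ± 0.522, 5.66 ± 0.0719 and 5.94 ± 0.415 CPM per kb (SD, n = 2 each), lay within or close to each other's spread. MCM7 was also first with the length of the longest transcript in place of all exons, but the rest of the order depended on the length. In Ctrl cells MCM4 then came second, with 18.4%, ahead of MCM3. MCM5, MCM2 and MCM6 came last there, with 10.1%, 9.67% and 8.89%. In VHL-restored cells MCM2 was then the lowest, with 7.28%. The ratios of the most to the least abundant subunit given above hold for the length of all exons.

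**Figure D2:**
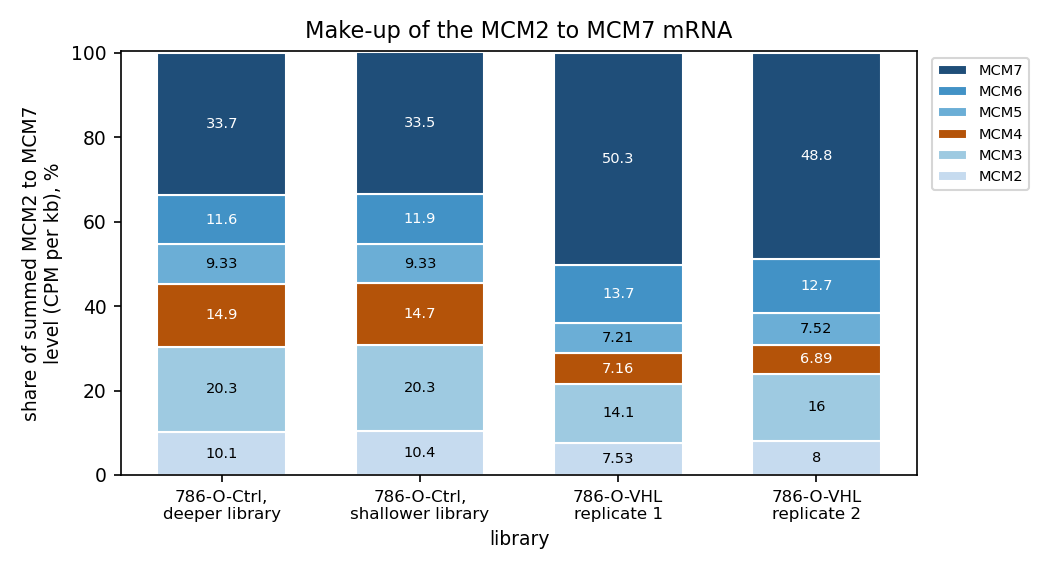
Share of each ring subunit in the summed MCM2 to MCM7 level (CPM per kb of annotated exons, %) in each of the 4 libraries. The MCM7 part grows from 33.7% and 33.5% in Ctrl cells to 50.3% and 48.8% in VHL-restored cells, and the MCM4 part (orange) shrinks from 14.9% and 14.7% to 7.16% and 6.89%.

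MCM10, the activation factor, fell less than MCM4 and more than MCM6 and MCM7. MCM10 (ENSG00000065328.16, chromosome 10, 13203558 to 13253110) was at 44.6 and 40 CPM in the deeper and the shallower Ctrl library and at 8.48 and 7.84 CPM in VHL-restored cells, a log2 change of -2.41 (SE 0.132, edgeR FDR = 2.98e-15). Its 95% interval, -2.69 to -2.14, overlaps those of MCM2, MCM3 and MCM5.

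The recombination helicase subunits MCM8 and MCM9 did not move together. MCM8 (ENSG00000125885.13, chromosome 20, 5931298 to 5979623) had 336 and 261 counts in Ctrl cells and 19 and 85 counts in VHL-restored cells. On the CPM scale this was 15.9 and 17.3 against 6.44 and 5.05, a log2 change of -1.64 (SE 0.179, 95% interval -2.01 to -1.28, edgeR FDR = 5.33e-09). MCM8 overlaps an annotated antisense gene, MCM8-AS1. MCM9 (ENSG00000111877.17, chromosome 6, 119134605 to 119256327) had 195 and 162 counts in Ctrl cells and 36 and 142 counts in VHL-restored cells. Its CPM values of 9.26 and 10.8 in Ctrl cells and 12.2 and 8.43 in VHL-restored cells overlapped, with a log2 change of -0.11 (SE 0.188, edgeR FDR = 0.64). The 95% interval of MCM9, -0.49 to 0.28, does not meet that of MCM8. This interval of MCM9 covers the spread between these libraries only. It does not reach the log2 changes of the ring subunits and does not exclude a small change. The sign of the MCM9 value is not fixed: it was 0.29 without VHL-restored replicate 2 (edgeR FDR = 0.408), 0.03 with library totals alone and 0.27 with counts thinned to the shallowest library. Per kb of exon, MCM8 went from 2.17 ± 0.128 to 0.747 ± 0.129 CPM and MCM9 from 0.801 ± 0.0852 to 0.826 ± 0.214 CPM (SD, n = 2 each). With this length MCM8 was the higher one in Ctrl cells, and both lay within each other's spread in VHL-restored cells. That comparison depends on the length used. All exons span 12496 bases for MCM9 and 7691 for MCM8, but the longest transcripts span 7592 and 7486. Dividing by the longest transcript would raise MCM9 relative to MCM8.
The antisense gene ASF1A lies within MCM9 on the opposite strand, and the use of strand in counting is not given in the sources used here. ASF1A, a histone chaperone, rose from 21.4 and 22.1 CPM to 36.97 and 38.29 CPM (log2 change 0.81, edgeR FDR = 1.3e-07). Whether its reads took part in the MCM9 value was not tested.

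MCMBP (ENSG00000197771.12, chromosome 10, 121588916 to 121652068) fell the least of the 9 genes. It was at 136.7 and 138.9 CPM in Ctrl cells and at 87.2 and 94.4 CPM in VHL-restored cells, a log2 change of -0.58 (SE 0.0678, 95% interval -0.72 to -0.44, edgeR FDR = 2.13e-08). Of all genes tested, 17.8% had a lower log2 change than MCMBP, against 4.55% for MCM7. Per kb of exon, MCMBP was below every ring subunit in Ctrl cells, at 22.99 ± 0.258 CPM per kb, and above every one but MCM7 in VHL-restored cells, at 15.2 ± 0.854 CPM per kb (SD, n = 2 each).

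Promoters of the family were read because most of its genes moved together and E2F proteins are known regulators of the ring genes. RefSeq windows of 300 bases (250 before to 50 after a start site, GRCh38.p14) were matched by symbol for 8 of the 10 genes, without MCM4 and MCM5. They were searched on both strands for the E2F letters TTTCCCGC, TTTCGCGC, TTTGCCGC and TTTGGCGC. The windows of MCM2, MCM3, MCM6 and MCM7 are shown for the ring, that of MCMBP because it holds E2F letters beside the smallest fall, and that of MCM9 because the gene did not pass the test. Where a gene has several windows, the first is shown for MCM7 and the second for MCMBP. The windows are MCM2 at chr3:127598161-127598460 on the plus strand, MCM3 at chr6:52284693-52284992 on the minus strand, MCM6 at chr2:135876394-135876693 on the minus strand, MCM7 at chr7:100101348-100101647 on the minus strand, MCMBP at chr10:119872794-119873093 on the minus strand and MCM9 at chr6:118935110-118935409 on the minus strand. Each is written 5′ to 3′ on the strand of its gene, and capitals mark the E2F letters or their reverse complement.
MCM2: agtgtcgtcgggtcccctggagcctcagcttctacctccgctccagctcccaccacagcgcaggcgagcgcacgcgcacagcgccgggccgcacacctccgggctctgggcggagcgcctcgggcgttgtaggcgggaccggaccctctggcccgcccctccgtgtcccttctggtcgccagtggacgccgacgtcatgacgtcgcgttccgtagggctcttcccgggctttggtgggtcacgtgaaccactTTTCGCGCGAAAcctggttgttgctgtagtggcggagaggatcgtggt
MCM3: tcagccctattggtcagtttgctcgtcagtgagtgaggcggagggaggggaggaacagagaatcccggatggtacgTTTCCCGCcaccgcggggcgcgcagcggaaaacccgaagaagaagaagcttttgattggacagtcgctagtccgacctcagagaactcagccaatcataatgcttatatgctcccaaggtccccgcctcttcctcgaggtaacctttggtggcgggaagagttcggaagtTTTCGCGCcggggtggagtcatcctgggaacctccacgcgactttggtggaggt
MCM6: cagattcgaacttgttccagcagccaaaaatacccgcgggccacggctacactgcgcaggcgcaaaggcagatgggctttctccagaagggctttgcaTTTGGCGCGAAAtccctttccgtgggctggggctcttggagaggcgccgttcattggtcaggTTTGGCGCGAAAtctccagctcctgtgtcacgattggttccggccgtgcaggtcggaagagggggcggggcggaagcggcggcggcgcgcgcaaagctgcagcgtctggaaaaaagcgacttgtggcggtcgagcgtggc
MCM7: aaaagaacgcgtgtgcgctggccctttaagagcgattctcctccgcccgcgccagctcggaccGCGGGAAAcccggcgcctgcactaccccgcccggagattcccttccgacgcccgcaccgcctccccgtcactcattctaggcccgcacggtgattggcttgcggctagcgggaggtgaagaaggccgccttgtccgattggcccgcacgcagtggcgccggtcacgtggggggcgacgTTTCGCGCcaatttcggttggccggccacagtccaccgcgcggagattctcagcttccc
MCMBP: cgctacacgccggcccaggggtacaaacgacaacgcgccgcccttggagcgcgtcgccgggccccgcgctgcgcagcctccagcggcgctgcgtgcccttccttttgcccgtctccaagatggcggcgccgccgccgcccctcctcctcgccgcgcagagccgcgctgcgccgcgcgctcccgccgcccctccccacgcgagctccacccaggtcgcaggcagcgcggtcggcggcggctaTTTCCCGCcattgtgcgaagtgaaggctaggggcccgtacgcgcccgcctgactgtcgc
MCM9: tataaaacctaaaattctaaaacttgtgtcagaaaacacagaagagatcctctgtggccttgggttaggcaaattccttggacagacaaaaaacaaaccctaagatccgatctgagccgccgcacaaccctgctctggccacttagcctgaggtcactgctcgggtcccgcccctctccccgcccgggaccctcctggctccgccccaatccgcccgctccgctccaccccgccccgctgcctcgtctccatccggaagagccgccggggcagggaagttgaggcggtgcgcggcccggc

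E2F letters were found for 6 of the 8 genes, namely MCM2, MCM3, MCM6, MCM7, MCM8 and MCMBP, and for 3.99% of the 27305 genes with a window. Counted by window, 6 of 11 windows of the family held them, against 3.31% of 35116. Neither background share was matched to the family for base composition or gene type. MCM6 carried 4 matches in overlapping pairs, in which the letters and a reverse complement share 4 bases, at 152 and 148 and at 90 and 86 bases before the start. MCM2 had 1 such pair, 2 and 6 bases after the start. In MCM3 and MCM7 the second of 2 matches lay 4 and 9 bases before the start, and in MCMBP the only match lay 9 bases before it. MCM9, which did not pass the test, and MCM10, which fell by over 4-fold, had none of these letters in their windows. MCM8 fell 3.13-fold with 1 match, 26 bases after the start.
CCAAT or its reverse complement occurred for 6 of the 8 genes and for 39.7% of all genes. ACGTG or GCGTG, the core of the element that HIF binds, occurred for 7 of 8 genes and for 52.4% of all genes, MCM9 being the one without it. The CHR letters TTTGAA were found for 0 of 8 and for 18.2% of all genes. A match describes letters only and is not a measured binding site.

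**Figure D3:**
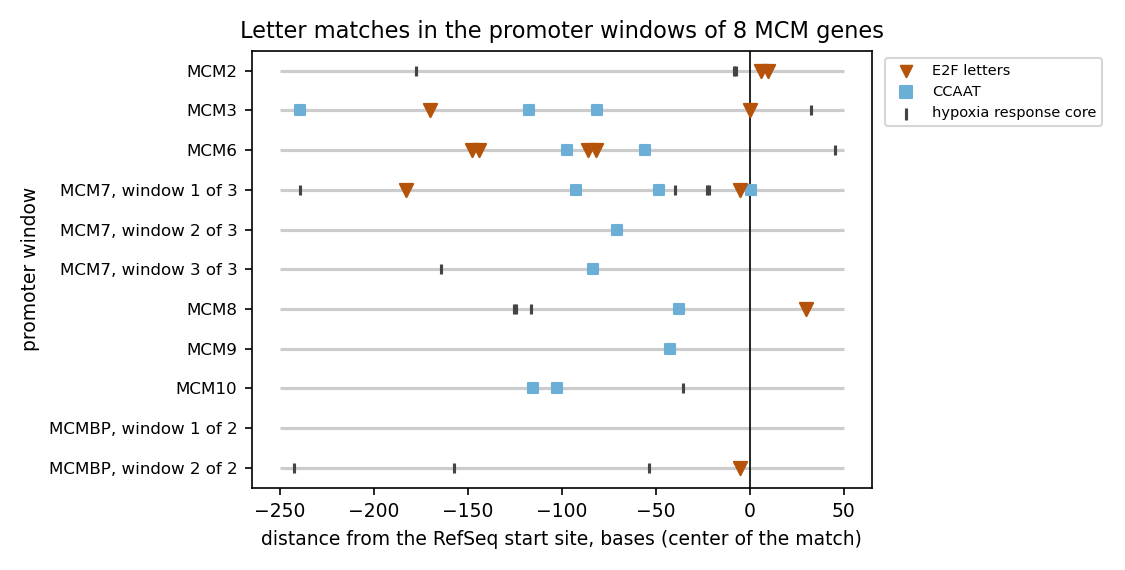
Positions of E2F letters (orange triangles), CCAAT (squares) and the hypoxia response core (black ticks) in the 11 promoter windows of 8 MCM genes, in bases from the RefSeq start at 0. E2F letters lie in 1 window each of 6 genes, and in none of the windows of MCM9 and MCM10.

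Several MCM genes share a start region with a gene on the other strand. MCM2, MCM4, MCM7, MCM8 and MCMBP each have a protein-coding neighbor on the opposite strand whose annotated start lies within 1000 bases of their own. None of the 5 neighbors fell as far as the MCM gene it faces, and in each pair the 95% intervals of the log2 changes did not meet. The start of PRKDC, the catalytic subunit of DNA-dependent protein kinase, lies 7 bases from that of MCM4. PRKDC was at 831 and 798 CPM in Ctrl cells and at 438 and 484.5 CPM in VHL-restored cells, a log2 change of -0.81 (SE 0.0634, edgeR FDR = 6.14e-12), against -2.93 for MCM4.
TPRA1, 143 bases from MCM2, was at 95.4 and 89.7 CPM in Ctrl cells and at 99.7 and 120.9 CPM in VHL-restored cells, with a log2 change of 0.30 (SE 0.0742, edgeR FDR = 0.000763). That rise did not pass with DESeq2 (adjusted p = 0.0602), without the shallower Ctrl library (0.24, edgeR FDR = 0.0637) or without VHL-restored replicate 2 (0.10, edgeR FDR = 0.423). The second of the TPRA1 windows overlaps the MCM2 window and holds the same E2F letters. A window of AP4M1 and the window of TRMT6 likewise hold the E2F letters of the MCM7 and MCM8 windows, read from the other strand. The window of SEC23IP holds none, and PRKDC has no window here. SEC23IP, 151 bases from MCMBP, was at 74.1 and 74.3 CPM in Ctrl cells and at 76.0 and 74.3 CPM in VHL-restored cells (log2 change 0.01, 95% interval -0.13 to 0.16, edgeR FDR = 0.897).
TRMT6, a subunit of a tRNA methyltransferase, starts 94 bases from MCM8 and was at 27.4 and 28.5 CPM and then at 24.4 and 22.03 CPM (log2 change -0.31, edgeR FDR = 0.0202, and adjusted p = 0.161 with DESeq2). It also did not pass without the deeper (-0.33, edgeR FDR = 0.0984) or the shallower Ctrl library (-0.28, edgeR FDR = 0.164) or without VHL-restored replicate 2 (-0.20, edgeR FDR = 0.385), nor with library totals alone (-0.17) or thinned counts (-0.15). AP4M1, a subunit of an adaptor complex, starts 391 bases inside MCM7 and was at 20.3 and 20.7 CPM and then at 17.98 and 18.94 CPM (log2 change -0.13, 95% interval -0.38 to 0.12, edgeR FDR = 0.37).

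**Figure D4:**
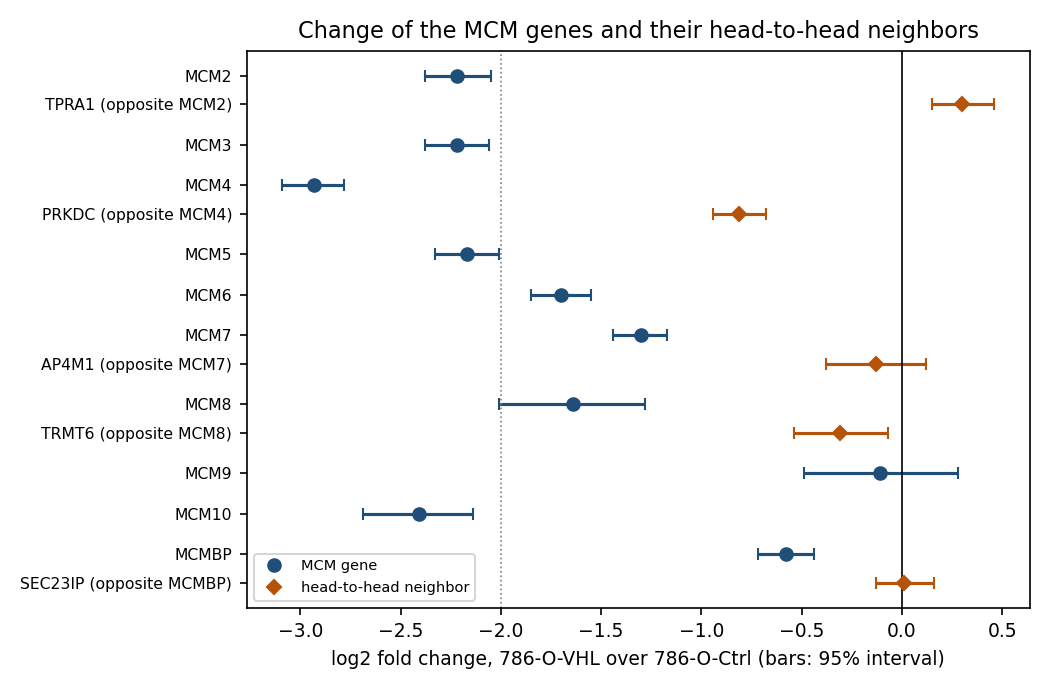
Log2 fold change (VHL-restored over Ctrl) with its 95% interval for the 10 MCM genes (blue circles) and the 5 head-to-head neighbors (orange diamonds), with a dotted line at 4-fold lower. MCM4 lies leftmost at -2.93 and MCM9 at -0.11 crosses 0, while the neighbors lie between -0.81 and 0.30.

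The factors that load the ring onto DNA were mostly lower as well. Of 9 licensing factors, 7 were lower and 0 higher, beside 31.9% lower and 32.6% higher among all genes. The median log2 change of the 9 was -1.26, against 0.02 over all genes. ORC1, the largest subunit of the origin recognition complex, went from 29.5 and 28.6 CPM to 3.39 and 4.99 CPM, a log2 change of -2.62 (SE 0.16, edgeR FDR = 3.11e-14). The loaders CDC6 and CDT1 had log2 changes of -2.13 (edgeR FDR = 9.63e-16) and -1.78 (edgeR FDR = 1.37e-14), and GMNN, the inhibitor of CDT1, had one of -1.49 (edgeR FDR = 2.46e-12). ORC2 and ORC5 did not pass the test, with log2 changes of -0.03 (95% interval -0.22 to 0.17) and 0.08 (95% interval -0.13 to 0.29). The call of ORC4, -0.28 (edgeR FDR = 0.0196), was lost with DESeq2 (adjusted p = 0.148), with library totals alone (-0.14), with thinned counts (-0.37), and without the deeper Ctrl library (-0.27), the shallower one (-0.29) or VHL-restored replicate 2 (-0.23).

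All 13 genes of helicase activation were lower, beside 31.9% of all genes, with a median log2 change of -1.36. GINS2, a subunit of the GINS complex, fell further than any MCM gene, from 39.5 and 36.9 CPM to 3.05 and 4.10 CPM, a log2 change of -3.28 (SE 0.157, 95% interval -3.61 to -2.96, edgeR FDR = 1.24e-16), and its interval overlaps that of MCM4. GINS4, RECQL4 and CDC45 followed with -2.29, -2.03 and -1.96 (edgeR FDR = 2.12e-11, 1.62e-18 and 1.98e-14). GINS3, another subunit of the same complex, had a log2 change of -0.46 (95% interval -0.76 to -0.16, edgeR FDR = 0.00681), so GINS subunits also fell unequally. The GINS3 value was -0.47 with DESeq2 and did not pass (adjusted p = 0.095), nor did it without the deeper Ctrl library (-0.44, edgeR FDR = 0.0804) or VHL-restored replicate 2 (-0.39, edgeR FDR = 0.187). It was singled out after its value was seen.

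Of 10 genes that travel with or protect the fork, 9 were lower and ASF1A alone was higher. Among all genes, 31.9% were lower and 32.6% higher. CLSPN, a checkpoint mediator, had a log2 change of -2.52 (SE 0.104, edgeR FDR = 6.45e-18). ASF1B, the paralog of ASF1A, had one of -1.94 (edgeR FDR = 1.23e-17), and TONSL and TIMELESS had -1.75 and -1.55 (edgeR FDR = 1.91e-16 and 4.12e-15). With DESeq2 the number that were lower was 7, as TIPIN (-0.51, adjusted p = 0.102) and RTEL1 (-0.87, adjusted p = 0.27) did not pass. Without VHL-restored replicate 2 these were at -0.33 and -0.56 and did not pass either, nor did they without the shallower Ctrl library (-0.47 and -0.88), and without the deeper one RTEL1 was at -0.91 and did not pass. RTEL1 also did not pass with library totals alone (-0.77, edgeR FDR = 0.0749) or with either replicate block (-0.88 and -0.87, edgeR FDR = 0.0762 and 0.0714), under which 8 of the 10 genes were lower. With thinned counts TIPIN was at -0.11 (edgeR FDR = 0.77).
MCM3AP, which shares only part of its name with the ring, had a log2 change of -0.10 (95% interval -0.24 to 0.05, edgeR FDR = 0.243).

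**Figure D5:**
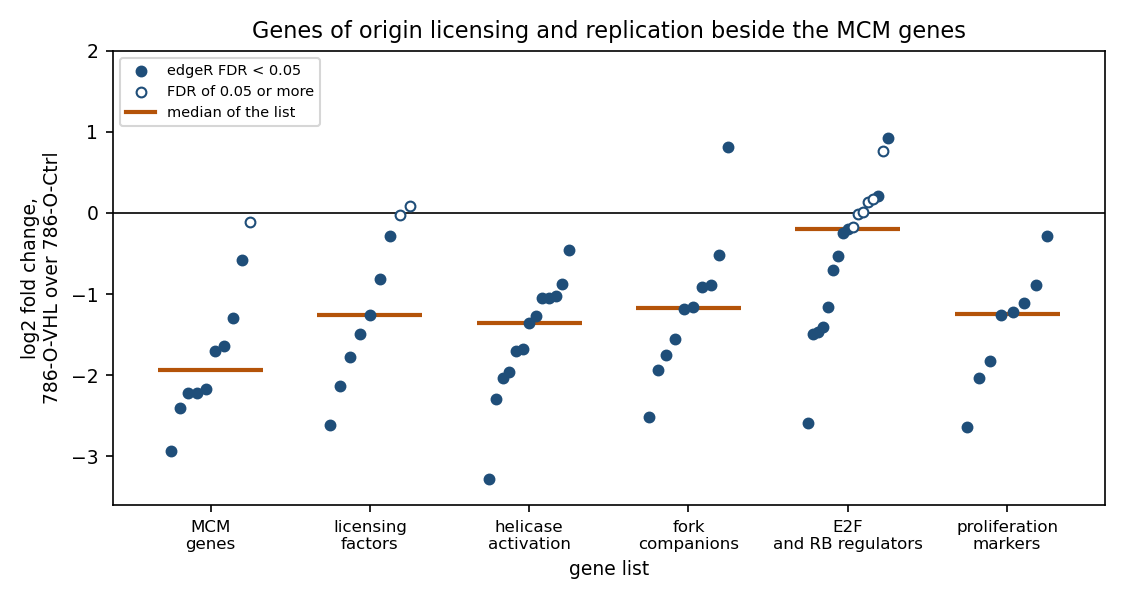
Log2 fold change (VHL-restored over Ctrl) of each tested gene in 6 lists, 1 point per gene (filled, edgeR FDR under 0.05; open, not passed), with the median of each list as an orange line. Medians run from -1.94 for the MCM genes to -0.20 for the E2F and RB regulators, which hold most of the open points.

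E2F and RB family genes are the known regulators of MCM transcription. Of 17 tested, 9 were lower and 2 higher at an FDR under 0.05, with a median log2 change of -0.20. Among all genes tested, 31.9% were lower and 32.6% higher. With DESeq2, 6 of the 17 were lower, beside 3150 of 12908 among all genes. E2F1 fell from 112.7 and 107.8 CPM to 17.6 and 18.5 CPM, a log2 change of -2.59 (SE 0.0883, edgeR FDR = 9.6e-20). E2F8, MYBL2 and RBL1 had log2 changes of -1.49, -1.47 and -1.41 (edgeR FDR = 6.42e-09, 5.39e-17 and 1.12e-12). E2F5 rose from 16.5 and 17.1 CPM to 32.9 and 31.2 CPM, a log2 change of 0.92 (SE 0.115, edgeR FDR = 7.23e-08). TFDP2 had a log2 change of 0.21 (edgeR FDR = 0.0266), and did not pass with DESeq2 (adjusted p = 0.324) or without the deeper Ctrl library (0.23), the shallower one (0.17) or VHL-restored replicate 2 (0.07), with thinned counts (0.27) or with either replicate block (0.20 and 0.19). The calls that DESeq2 did not make were E2F3 (-0.26, adjusted p = 0.0957), E2F4 (-0.27, adjusted p = 0.083) and LIN9 (-0.42, adjusted p = 0.202). LIN9, a subunit of the MuvB complex, was at 15.3 and 15.1 CPM in Ctrl cells and at 15.6 and 9.14 CPM in VHL-restored cells. Its log2 change of -0.53 (edgeR FDR = 0.00862) was 0.03 without VHL-restored replicate 2, -0.48 without the deeper Ctrl library and -0.13 with thinned counts, and none of these passed. E2F3 did not pass without the shallower Ctrl library (-0.20) or VHL-restored replicate 2 (-0.21), nor E2F4 without the deeper Ctrl library (-0.17) or VHL-restored replicate 1 (-0.10). With library totals alone E2F3 was at -0.12 and E2F4 at -0.07, and with thinned counts E2F3 was at -0.28, none of which passed. The value of RB1, the retinoblastoma gene itself, was -0.01 (95% interval -0.15 to 0.14). E2F6, RBL2, LIN52 and LIN54 did not pass either, with log2 changes between -0.17 and 0.17, and nor did LIN37, at 0.77 (95% interval -0.14 to 1.69) on no more than 25 counts per library. RBL2 passed as higher with library totals alone (0.30, edgeR FDR = 0.00133), and LIN52 with thinned counts (0.82, edgeR FDR = 0.0252). E2F2 was looked for by symbol, had no row in the count table and so was not analysed here.

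General markers of dividing cells moved with the family, and their part in the MCM values was not tested. All 8 looked for were lower, beside 31.9% of all genes, with a median log2 change of -1.24. RRM2, TYMS and PCNA, which serve DNA synthesis, had log2 changes of -2.64, -2.04 and -1.83 (edgeR FDR = 2.46e-21, 2.1e-17 and 1.91e-18). MKI67, CCNB1, CCNA2 and CDK1 had log2 changes of -1.26, -1.22, -1.11 and -0.89. TOP2A changed least, from 532 and 535 CPM to 430 and 445.5 CPM. Its log2 change was -0.28 (SE 0.0605, edgeR FDR = 0.000185), and -0.15 with scaling by library totals alone. In the study's own culture assays, colony and sphere formation did not differ significantly between the sublines. How those assays relate to these mRNA levels was not tested.

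The 5 other genes whose profile over the 4 libraries lay nearest to the mean of the ring subunits were TFRC, SHISAL1, CALR, MYORG and UHRF1. Likeness was the Euclidean distance between log2(CPM + 0.5) values centered on each gene's mean, and it ran from 0.0573 to 0.0892 for these genes. MCM5 was the nearest family member, at 0.092, and MCM4 and MCM7 were at 0.824 and 0.804. TFRC, the transferrin receptor, CALR, an endoplasmic reticulum chaperone, MYORG, a glycosidase, and UHRF1, a factor of DNA methylation maintenance, had log2 changes of -2.06, -2.13, -2.15 and -2.0. SHISAL1 rests on 37 and 25 counts in Ctrl cells and 0 and 1 in VHL-restored cells, and its place depends on the added 0.5.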

How the data were processed

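Total RNA of both sublines was sequenced on an Illumina instrument, and the authors deposited 1 table of raw counts per gene (whole reads per gene, not normalized) aligned to hg19. The submitters' processing notes name CASAVA and STAR. Which tool counted the reads, with which strand setting and gene models, is not given in the sources used here. Samples were grouped by their titles. Depth ran from 2807779 to 22141263 counts.

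The main test was the quasi-likelihood F test of edgeR 4.0.16 (R 4.3.3), fitted to genes that passed filterByExpr (minimum count 10), with TMM scaling, subline as sole factor and Benjamini-Hochberg adjustment over 12335 genes. Standard errors follow from the F statistic, and intervals from its degrees of freedom. The study used DESeq2, which was an alternative here. Coordinates, overlaps and exon lengths (union of annotated exons) came from GENCODE v44lift37 on GRCh37, and promoter windows from RefSeq. A head-to-head neighbor starts within 1000 bases on the opposite strand, overlapping starts included.

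All MCM genes, neighbors, 8 proliferation markers and the 5 genes of nearest profile were named, and of each other list at most 4 genes per direction with the largest change plus those that did not pass. The members and lists were chosen with earlier results of these data known. Recombination genes other than MCM8 and MCM9 are not reported here, and protein sequences were not analysed here.

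Alternatives were DESeq2 1.42.0, limma-voom (limma 3.58.1), RLE size factors, library totals alone, no filter, at least 10 counts in every library, thinning to the shallowest library, each library left out, a replicate block, other thresholds and another gene length.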

Additional observations from a re-analysis of the deposited data

How the results depend on the processing

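Under all 13 alternative fits, 9 MCM genes were lower, 0 were higher and 5 passed 4-fold. Without a fold threshold, 9 passed an FDR of 0.01. Library totals alone moved the median log2 fold change of all genes from 0.02 to 0.15. MCM9, called in no fit, changed sign with library totals alone (0.03) and after thinning (0.27), and ranged from -0.24 to 0.29 with 1 library left out. Other genes also changed sign. With library totals alone the log2 fold changes were 0.0032 for AP4M1, 0.11 for ORC2, 0.04 for MCM3AP and 0.13 for RB1. After thinning they were 0.11 for MCM3AP and 0.2 for RB1. With DESeq2 they were -0.0053 for SEC23IP and -0.03 for E2F6, and with RLE -0.0031 and -0.0028. With 1 library left out ORC2 ranged from -0.11 to 0.0023, E2F6 from -0.09 to 0.04, RB1 from -0.04 to 0.00026 and LIN9 from -0.73 to 0.03. The number of E2F and RB regulators that were higher was 1 with DESeq2, between 1 and 2 with a library left out, and 3 with library totals alone. The cause was not tested in any of these. With the longest transcript as gene length, MCM7 made up 37.1% of the ring level in Ctrl cells and 54.4% in VHL-restored cells, and MCM4 18.4% and 8.69%.

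The numbers of the Ctrl columns do not tell which library pairs with which, so the replicate block was fitted for both possible pairings. In each, 9 MCM genes were lower and 5 passed 4-fold, the E2F and RB regulators that were higher numbered 1, the call of RTEL1 was lost, and E2F6 was at -0.02 with the deeper library paired to VHL-restored replicate 1. Over 9235 genes above 10 CPM, the deviations of the deeper Ctrl library and of VHL-restored replicate 1 had a correlation of -0.00985, so no pairing shows in the data. Depth limits MCM8, MCM10 and MCM9 most, with 19, 25 and 36 counts in the shallowest library.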
